A study of Equus caballus with 15 samples.

Results

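Extracellular matrix and matrix assembly genes were followed in equine macrophages by name. The list holds 52 gene symbols of matrix glycoproteins, proteoglycans, collagen chains, laminins and nidogens, elastic fibre genes, enzymes that modify or crosslink collagen, hyaluronan synthases, the hyaluronan receptor CD44 and the intermediate filament gene VIM, and proteases and their inhibitors were left out. Of these, 48 were among the 16932 genes with values, and EMILIN2, MGP, COL3A1 and LOXL1 were not analysed here. RNA was sequenced from monocyte-derived macrophages grown from the blood of 2 horses over 5 days in serum-containing medium with human M-CSF at 30 ng/ml. The 5 conditions, with 3 libraries each, were untreated macrophages, macrophages given IL-1ß at 10 ng/ml, and macrophages given the same IL-1ß together with an orthobiologic therapy (OT) that made up 25% of the medium for 24 h. The OTs were conditioned medium of bone marrow mesenchymal stromal cells (MSC-CM), lysed platelets in plasma (platelet rich plasma lysate, PRP lysate) and a conditioned serum (autologous conditioned serum, ACS), so every OT condition carried IL-1ß and was set against IL-1ß alone. The study prepared all OTs from the same 3 horses, which were not the macrophage donors, so libraries of different OTs share OT donors, but the labels do not match donors across OTs and the reported values are unpaired. It describes the IL-1ß and untreated libraries as technical replicates, so spread within those groups may be technical alone. The reported p-values rest on a spread pooled over all 5 conditions, which mixes it with spread between OT donors. The labels place RNA collection directly after treatment and washing, whereas the methods describe a further culture period.

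The extracellular matrix is a meshwork of collagens, adhesive glycoproteins, proteoglycans and hyaluronan that is assembled outside the cell and crosslinked by secreted enzymes. Basement membranes, its sheet-like form, are built from laminins, type IV collagen, nidogens and perlecan. Macrophages are better known for degrading matrix than for building fibrillar collagen, but they secrete fibronectin, osteopontin, versican and other adhesive proteins in wounds and inflamed joints, and they bind hyaluronan through CD44.

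The libraries held an estimated 28410739 to 47894069 reads on genes, so 1 read was worth 0.0209 to 0.0352 CPM, the library-scaled read count. CD68, a lysosomal glycoprotein of macrophages, averaged 1674 CPM, the receptor gene CSF1R 343 CPM and CD14 2.49 CPM. On the first principal component of all tested genes, which held 55.4% of the variance, IL-1ß replicate 3 lay at -103 and PRP lysate replicate 1 at -51.7, against -20.7 to 26.6 in the other 13 libraries. These 2 libraries also had the fewest genes with a read, 12647 and 13204 against 13713 to 14994, and the highest sums of lymphocyte markers (12 of 13 listed), 1931 and 2320 CPM against 695 to 1408. The members with 0 reads numbered 21 in IL-1ß replicate 3, 15 in PRP lysate replicate 1 and 3 to 8 in each of the others. Counts of called members are therefore also given over the 13 others. The 2 libraries were set apart after their values were seen, and the members' own 0 counts are among those values. IL-1ß and PRP lysate then keep 2 libraries each, and adjusted p-values over the 13 libraries may be too small. The part of the lymphocyte markers in the results was not tested.

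**Figure D1:**
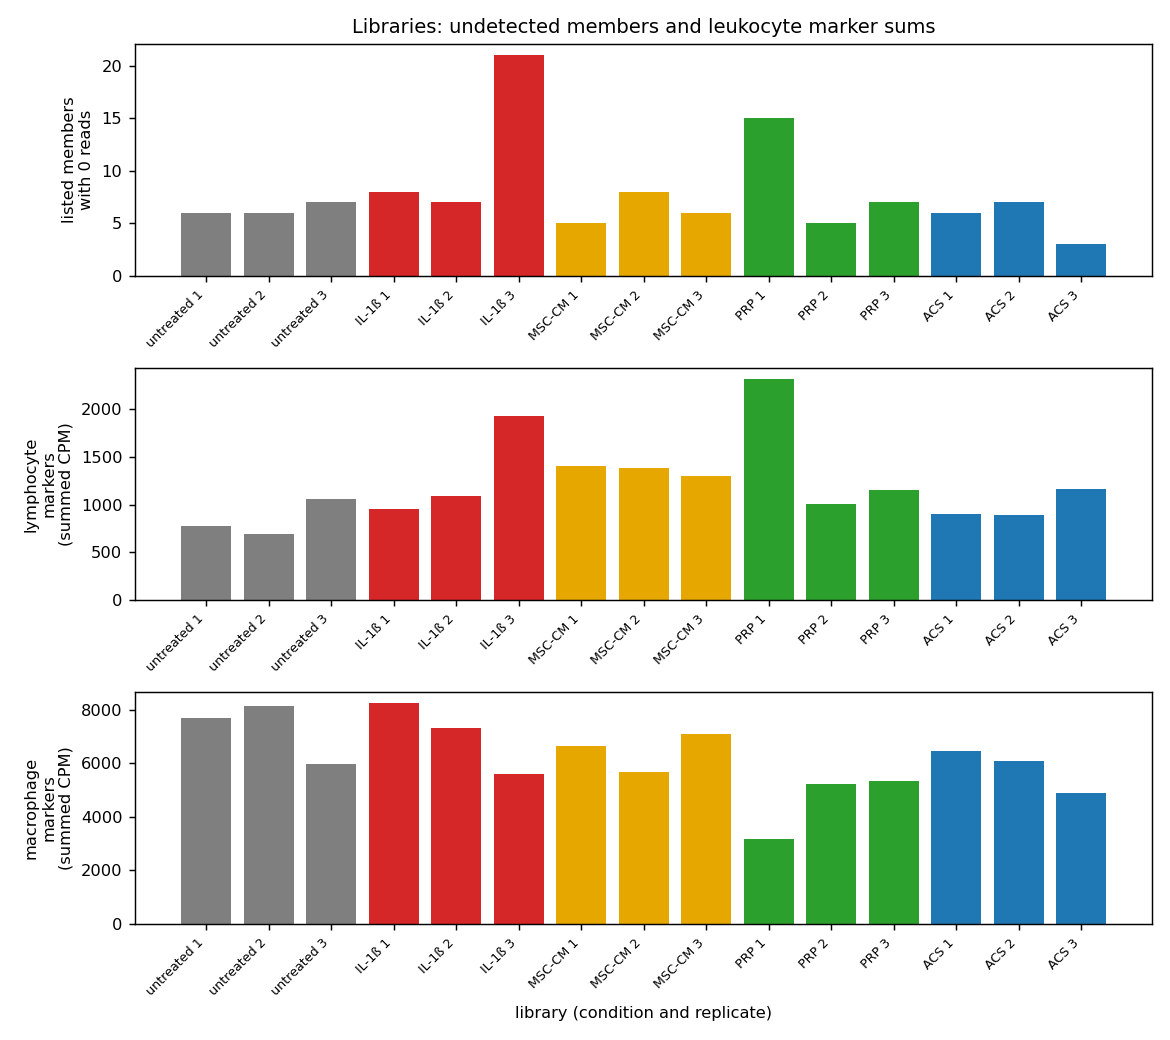
Bars give, for each of the 15 libraries on the horizontal axis, the number of listed matrix members with 0 reads (top), the summed CPM of lymphocyte markers (middle) and the summed CPM of macrophage markers (bottom), colored by condition. IL-1ß replicate 3 and PRP lysate replicate 1 had 21 and 15 undetected members and the highest lymphocyte marker sums.

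The listed members made up a small share of macrophage RNA, and most of that share came from few genes. The members, which include the intermediate filament gene VIM and the receptor gene CD44, took 1.47% to 3.00% of the reads per library. Of the members' reads, 92.1% to 96.4% lay on FN1, SPP1, TGFBI, VIM and CD44. Testing required a gene to average 1 CPM or more across the 15 libraries, and 23 members passed. The other 25 had means from 0.00200 to 0.958 CPM, with a median of 0.262 CPM, and 8 of them had a mean under 0.1 CPM. Both fibrillar type I collagen chains (COL1A1 and COL1A2), the type V chains (COL5A1 and COL5A2), the small proteoglycans DCN, LUM and BGN, elastin (ELN), fibrillin (FBN1) and periostin (POSTN) were among them. The highest single value of these 25 genes was 2.53 CPM, for COL5A2 in PRP lysate replicate 3. NID1, POSTN and FBLN5 had reads in 1 library of 15 each. No transcript lengths were used, so levels are not compared between genes.

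**Figure D2:**
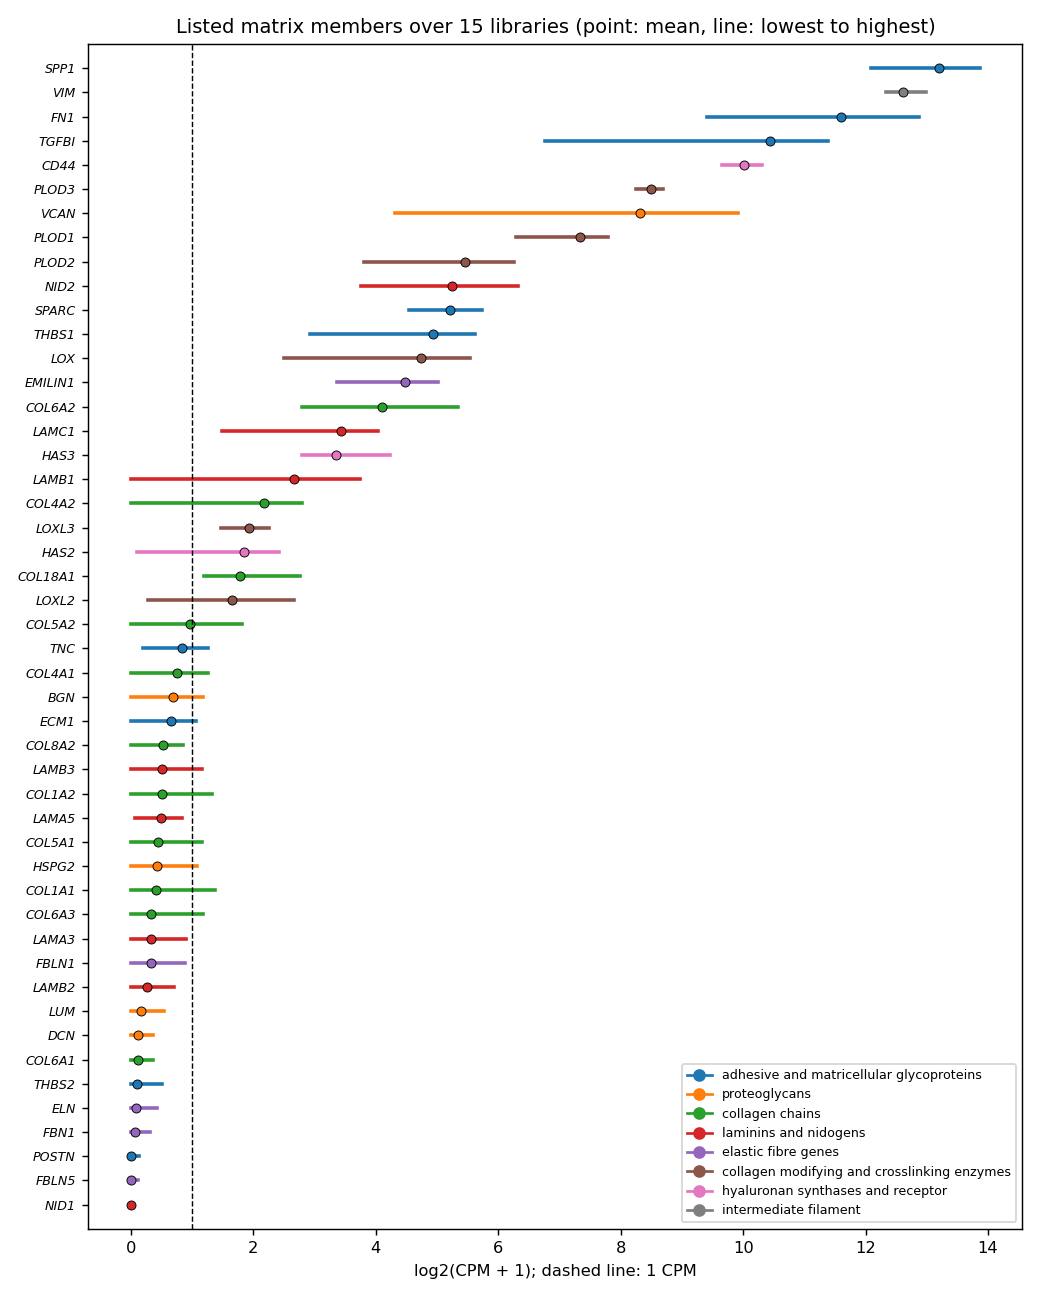
Each row is 1 of the 48 listed members, colored by role; the point is the mean and the line the range over the 15 libraries, as log2(CPM + 1), with a dashed line at 1 CPM. The 25 members that were not tested have their means left of the dashed line, and VCAN and TGFBI have the widest ranges among the members with a mean of at least 100 CPM.

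Values below are CPM in replicates 1, 2 and 3 of a condition, means are given ± SD (n = 3), and log2 fold changes are differences between means of log2(CPM + 1), which makes them smaller than the ratio of means for genes with few CPM. A member was called changed at a fold change of at least 2 and an adjusted p of at most 0.05, from limma with Benjamini-Hochberg adjustment over 11628 genes. In bulk RNA, fewer cells of a kind and less RNA per cell cannot be told apart.

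Among the adhesive and matricellular glycoproteins, TGFBI, a secreted protein that binds collagen and integrins, fell most. TGFBI (chr14:39200003-39358315, EquCab3.0) lay at 2246, 2327 and 1952 CPM with IL-1ß and at 2167, 2259 and 1065 CPM untreated. With MSC-CM it lay at 2663, 1395 and 2125 CPM, with PRP lysate at 108, 236 and 361 CPM, and with ACS at 804, 647 and 498 CPM. Every PRP lysate and ACS library was below every library of the other 3 conditions, and all PRP lysate libraries were below all ACS libraries. Against IL-1ß, TGFBI fell by 3.36 on the log2 scale with PRP lysate (SE 0.40, adjusted p = 0.000326) and by 1.76 with ACS (SE 0.40, adjusted p = 0.0301). The PRP lysate call held without each library in turn and over the 13 libraries (-2.97, adjusted p = 0.000277), while the ACS call held without 1 of the 6 libraries, IL-1ß replicate 1, and was lost without IL-1ß replicate 2 or 3 or any ACS library, with log2 fold changes from -1.93 to -1.59, and it was also lost without the filter on low values (adjusted p = 0.0502). Over the 13 libraries TGFBI differed by -1.84 with ACS (adjusted p = 0.00546) and was called. Against MSC-CM, TGFBI fell by 3.24 with PRP lysate (adjusted p = 0.000568), and the ACS difference was -1.64 (adjusted p = 0.0577). PRP lysate and ACS differed by -1.60 (SE 0.40, adjusted p = 0.264), a difference that was not called. SMAD5, which lies within the span of TGFBI, had a log2 fold change of 0.23 with PRP lysate and 1.03 with ACS against IL-1ß, neither called.

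FN1 encodes fibronectin, the glycoprotein that links integrins to collagen and fibrin. FN1 (chr6:5257446-5322595) lay at 1587, 3613 and 2356 CPM untreated and at 2308, 1649 and 681 CPM with IL-1ß. It lay at 2225, 3238 and 1527 CPM with MSC-CM, at 2414, 2781 and 3473 CPM with PRP lysate, and at 4369.5, 7534 and 6722 CPM with ACS. The ACS libraries were above all 12 others. FN1 rose with ACS against IL-1ß by 2.14 on the log2 scale (SE 0.43, adjusted p = 0.0162), from 1546 ± 818 to 6209 ± 1644 CPM. The rise over the 13 libraries was 1.63 (adjusted p = 0.0153), and the call was lost without ACS replicate 2 (1.98, adjusted p = 0.0900) or ACS replicate 3 (2.06, adjusted p = 0.0750). PRP lysate libraries were also all above the IL-1ß libraries, with a log2 fold change of 1.06 that was not called (SE 0.43, adjusted p = 0.207) and was 0.67 over the 13 libraries. Against MSC-CM the ACS difference was 1.44 (SE 0.43, adjusted p = 0.123).

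The other glycoproteins were not called in any of the 7 comparisons. SPP1, which encodes the adhesive and cytokine-like protein osteopontin, lay at 14948, 13734 and 7521 CPM untreated, at 12993, 11871 and 4375 CPM with IL-1ß, and at 9363, 7665 and 6587 CPM with MSC-CM. With PRP lysate it lay at 5925, 8915 and 9119 CPM and with ACS at 10379, 11195 and 7133 CPM, so its ranges overlapped across conditions. SPARC, a collagen-binding matricellular protein, was 23.8 ± 1.73 CPM with PRP lysate, below every library of the other conditions. Its log2 fold changes with PRP lysate, -0.63 against IL-1ß (SE 0.14, adjusted p = 0.0186) and -0.62 against MSC-CM (adjusted p = 0.0219), passed the adjusted p but stayed under the 2-fold threshold. THBS1, an activator of latent TGF-ß, lay at 26.3, 29.4 and 28.9 CPM untreated, at 31.5, 30.0 and 6.60 CPM with IL-1ß, at 27.4, 48.3 and 40.2 CPM with MSC-CM, at 33.2, 21.6 and 31.4 CPM with PRP lysate and at 23.2, 30.8 and 36.2 CPM with ACS. The single low library was IL-1ß replicate 3.

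VCAN, the hyaluronan-binding proteoglycan versican, was the tested proteoglycan. VCAN (chr14:83302465-83406983) lay at 495, 612 and 257 CPM untreated and at 960.2, 492 and 114 CPM with IL-1ß, a spread of 522 ± 424 CPM. It lay at 334, 269 and 619.9 CPM with MSC-CM, at 18.8, 72.1 and 95.4 CPM with PRP lysate, and at 171, 143 and 121 CPM with ACS. All PRP lysate libraries were below all other libraries, and the ACS libraries overlapped IL-1ß only through IL-1ß replicate 3. VCAN fell with PRP lysate by 2.87 on the log2 scale against IL-1ß (SE 0.71, adjusted p = 0.0338) and by 2.88 against MSC-CM (SE 0.71, adjusted p = 0.0369). The first call was lost without IL-1ß replicate 1 or 2 or PRP lysate replicate 1 or 2 (log2 fold changes -3.12 to -2.17) and the second without any MSC-CM library or PRP lysate replicate 1 or 2 (-3.14 to -2.19). Over the 13 libraries both were called, at -3.04 and -2.19 (adjusted p = 0.000711 and 0.00228), and without the filter on low values both were lost (adjusted p = 0.0567 and 0.0638). The ACS difference from IL-1ß, -1.39 over all libraries (SE 0.71, adjusted p = 0.265), was -2.25 over the 13 libraries (SE 0.39, adjusted p = 0.00451). HSPG2, which encodes perlecan, and BGN, DCN and LUM were not tested.

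**Figure D3:**
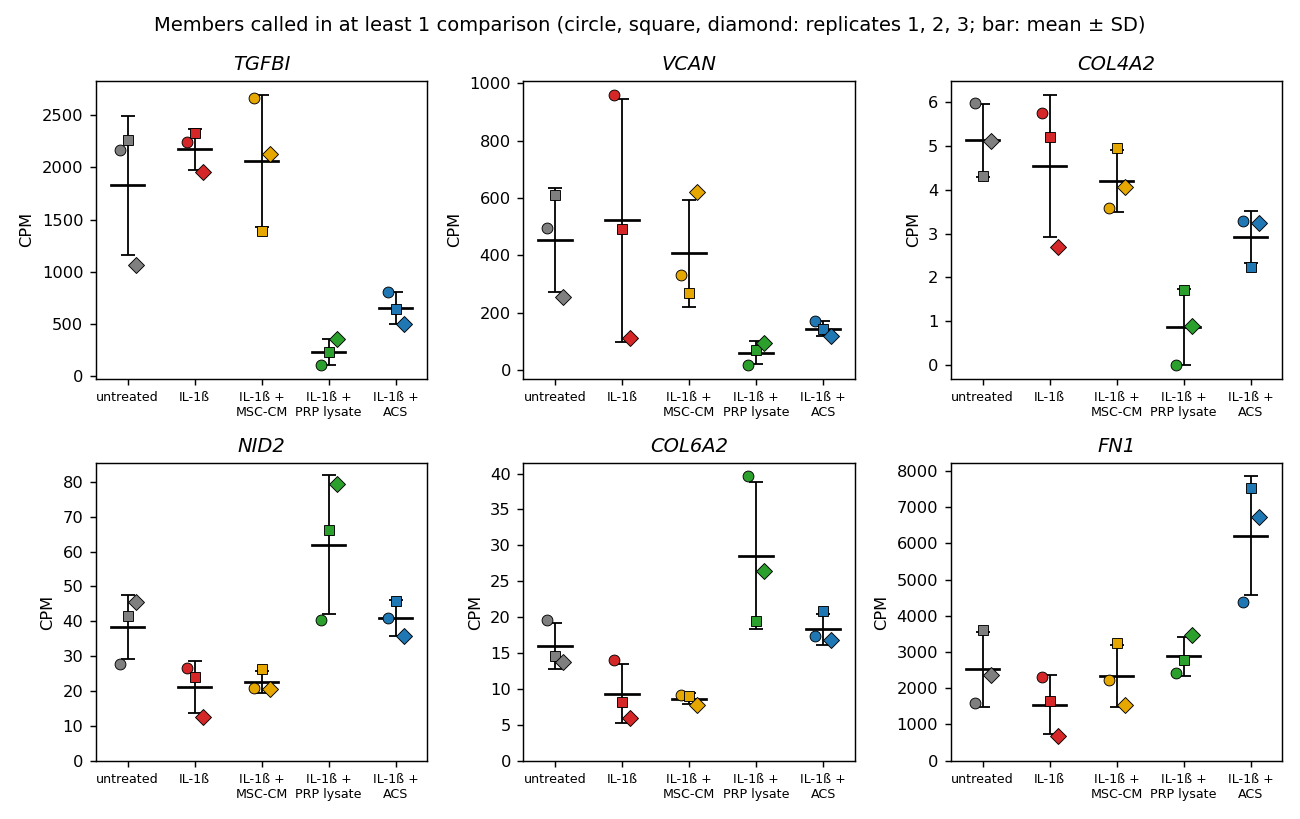
CPM (linear axis) of the 6 members called in at least 1 comparison in each library of the 5 conditions; circles, squares and diamonds are replicates 1, 2 and 3, and the bars are mean ± SD of 3 libraries. TGFBI, VCAN and COL4A2 are lowest with PRP lysate, NID2 and COL6A2 have their highest means with PRP lysate, and the 3 ACS libraries hold the highest FN1 values.

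Of the collagen chains, COL4A2 fell and COL6A2 rose with PRP lysate. COL4A2, a basement membrane collagen chain (chr17:77582897-77786110), lay at 5.98, 4.32 and 5.11 CPM untreated, at 5.75, 5.20 and 2.697 CPM with IL-1ß and at 3.58, 4.96 and 4.07 CPM with MSC-CM. With ACS it lay at 3.30, 2.24 and 3.24 CPM, and with PRP lysate at 0, 1.72 and 0.880 CPM, from 0, 72 and 25 reads. COL4A2 was lower with PRP lysate in every library than in any other condition and fell by 1.64 on the log2 scale against IL-1ß (SE 0.33, adjusted p = 0.0103) and by 1.59 against MSC-CM (SE 0.33, adjusted p = 0.0141). The first call held without each library in turn, and the second was lost without MSC-CM replicate 2 (-1.48, adjusted p = 0.0621) or 3 (-1.60, adjusted p = 0.0627). On recovered reads DESeq2 called both (-2.47, adjusted p = 0.00858, and -2.22, adjusted p = 0.0271). edgeR called neither, with adjusted p of 0.10 and 0.17. The size depends on how the 0 is treated: with a pseudocount of 0.1 CPM the differences were -2.97 (adjusted p = 0.0445) and -2.92 (adjusted p = 0.0541, not called). ENSECAG00000033034, whose span overlaps the end of COL4A2, was 29.1 CPM with PRP lysate and 82.7 CPM with IL-1ß, and it fell by 1.49 (adjusted p = 0.00336). Reads of the pair cannot be told apart with certainty, because the strand setting of the counting is not stated. COL4A1, the partner chain of COL4A2, lies 25 bp away and was not tested, with at most 1.40 CPM in any library.

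COL6A2 encodes a chain of the microfibrillar type VI collagen. COL6A2 (chr26:42482169-42499758) lay at 19.6, 14.5 and 13.8 CPM untreated, at 14.01, 8.14 and 5.95 CPM with IL-1ß and at 9.10, 9.08 and 7.75 CPM with MSC-CM. It lay at 39.7, 19.5 and 26.5 CPM with PRP lysate and at 17.4, 20.8 and 16.8 CPM with ACS, so the libraries of both blood products were above all IL-1ß and MSC-CM libraries. COL6A2 rose with PRP lysate by 1.53 against IL-1ß (SE 0.29, adjusted p = 0.00699) and by 1.56 against MSC-CM (SE 0.29, adjusted p = 0.00701), and both calls held without each library in turn, while in a fit of the 2 groups alone the call against IL-1ß was lost (adjusted p = 0.251). The highest value was in PRP lysate replicate 1, and over the 13 libraries the rises were 1.02 and 1.30 (adjusted p = 0.0192 and 0.00176). With ACS the differences were 0.97 against IL-1ß (adjusted p = 0.0908) and 1.00 against MSC-CM (adjusted p = 0.111). Its partner chains COL6A1 and COL6A3 reached at most 0.281 and 1.26 CPM in any library. COL18A1, whose protein carries the endostatin fragment, lay at 2.78, 2.24 and 2.98 CPM untreated, at 1.28, 2.06 and 3.73 CPM with IL-1ß, at 2.42, 2.67 and 1.69 CPM with MSC-CM, at 5.80, 1.94 and 2.78 CPM with PRP lysate and at 1.39, 1.45 and 1.29 CPM with ACS. It was not called in any comparison.

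COL1A1, a chain of type I collagen with a mean of 0.329 CPM, was too low to be tested and is named here after its values were seen. It had 13, 47 and 77 reads with ACS (0.355, 1.24 and 1.61 CPM) and 0, 1 and 0 reads with IL-1ß. Untreated macrophages had 6, 23 and 7 reads, MSC-CM libraries 3, 14 and 1, and PRP lysate libraries 5, 5 and 0. Both DESeq2 (adjusted p = 0.00201) and edgeR (adjusted p = 0.0460) called COL1A1 higher with ACS than with IL-1ß on recovered reads, and limma without the filter on low values did not. COL1A2, the partner chain, averaged 0.333 CPM with ACS and 0.316 CPM with IL-1ß. Its means were 0.345 CPM untreated, 0.200 CPM with MSC-CM and 0.910 CPM with PRP lysate.

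The tested laminin and nidogen genes, whose products build basement membranes, were NID2, LAMB1 and LAMC1. NID2, which encodes the laminin and collagen IV linker nidogen 2 (chr1:187871948-187916875), lay at 27.9, 41.7 and 45.5 CPM untreated, at 26.7, 24.1 and 12.5 CPM with IL-1ß and at 20.8, 26.3 and 20.5 CPM with MSC-CM. With PRP lysate it lay at 40.4, 66.2 and 79.4 CPM and with ACS at 41.0, 45.9 and 35.7 CPM. NID2 rose with PRP lysate by 1.52 on the log2 scale against IL-1ß (SE 0.30, adjusted p = 0.00917) and by 1.37 against MSC-CM (SE 0.30, adjusted p = 0.0188). The first call held without each library in turn, and the second was lost without MSC-CM replicate 1 or 3 or PRP lysate replicate 2 or 3 (log2 fold changes 1.17 to 1.32, adjusted p from 0.0727 to 0.0960). The second difference was 1.65 over the 13 libraries (adjusted p = 0.000156). With ACS the difference from IL-1ß was 0.98 (SE 0.30, adjusted p = 0.0973; 0.66 over the 13 libraries), and all ACS libraries were above all IL-1ß libraries. Untreated libraries were likewise all above IL-1ß libraries, with a log2 fold change of IL-1ß against untreated of -0.87 (SE 0.30, adjusted p = 0.242) that was -0.55 over the 13 libraries. NID1, its paralog, had reads in 1 library.

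LAMB1 and LAMC1 encode the beta and gamma chains of the common laminins. LAMB1 lay at 2.66, 5.21 and 4.24 CPM untreated, at 3.84, 3.87 and 0 CPM with IL-1ß and at 4.26, 3.81 and 3.77 CPM with MSC-CM. With PRP lysate LAMB1 lay at 1.91, 12.4 and 11.0 CPM and with ACS at 7.72, 9.03 and 6.49 CPM. Its outlying values were those of IL-1ß replicate 3 and PRP lysate replicate 1. Over all libraries LAMB1 was not called with PRP lysate against IL-1ß (log2 fold change 1.44, SE 0.61, adjusted p = 0.232) or with ACS (1.60, SE 0.61, adjusted p = 0.177). The PRP lysate difference over the 13 libraries was 1.39 (SE 0.24, adjusted p = 0.00253) and was called, and that with ACS was 0.84 (adjusted p = 0.0373), under the 2-fold threshold. LAMC1 lay at 9.70, 15.3 and 9.56 CPM untreated, at 10.1, 6.67 and 1.80 CPM with IL-1ß, at 5.71, 8.13 and 6.81 CPM with MSC-CM, at 4.76, 13.7 and 14.9 CPM with PRP lysate and at 13.2, 13.7 and 13.5 CPM with ACS. The ACS libraries were above all IL-1ß libraries, with a log2 fold change of 1.22 that was not called (SE 0.46, adjusted p = 0.171) and was 0.65 over the 13 libraries (adjusted p = 0.106). LAMA3, LAMA5, LAMB2 and LAMB3 were under 1 CPM on average.

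Of the elastic fibre genes EMILIN1, an elastin interface glycoprotein, was tested. It lay at 24.3, 24.8 and 27.1 CPM untreated, at 31.3, 28.0 and 21.5 CPM with IL-1ß, at 26.9, 18.0 and 26.6 CPM with MSC-CM, at 9.35, 15.9 and 16.1 CPM with PRP lysate and at 21.7, 15.4 and 14.03 CPM with ACS. The PRP lysate libraries lay below all IL-1ß, MSC-CM and untreated libraries, and the difference from IL-1ß of -0.94 (SE 0.24, adjusted p = 0.0402) was 1.92-fold and so not called. It was called by DESeq2 (-1.06), by edgeR (-1.04) and with RLE size factors (-1.03), but not over the 13 libraries (-0.85) nor in 5 of the 6 fits that left out 1 library (log2 fold changes -1.09 to -0.71 over the 6 fits).

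All 6 listed collagen enzymes were tested, and none was called over all libraries. LOX, the lysyl oxidase that crosslinks collagen and elastin, lay at 28.5, 45.4 and 21.3 CPM untreated, at 33.7, 21.8 and 4.63 CPM with IL-1ß, at 13.3, 27.4 and 25.1 CPM with MSC-CM, at 7.55, 25.4 and 26.6 CPM with PRP lysate and at 31.8, 39.5 and 32.0 CPM with ACS. Its lowest values were again in IL-1ß replicate 3 and PRP lysate replicate 1. LOXL2, a lysyl oxidase of collagen IV, lay at 1.30, 2.16 and 1.83 CPM untreated, at 1.70, 2.03 and 1.11 CPM with IL-1ß, at 1.74, 2.03 and 1.80 CPM with MSC-CM, at 1.67, 1.20 and 0.211 CPM with PRP lysate and at 5.32, 4.64 and 3.32 CPM with ACS. The ACS libraries were above all 12 others. For LOXL2 the log2 difference was 1.05 with ACS against IL-1ß (SE 0.27, adjusted p = 0.0555) and -1.48 with PRP lysate against ACS (SE 0.27, adjusted p = 0.0641), both just past the adjusted p threshold. Over the 13 libraries the PRP lysate to ACS difference was -1.72 (adjusted p = 0.00995) and was called, and DESeq2 called it over all libraries (adjusted p = 0.015). The span of LOXL2 overlaps ENTPD4 and SLC25A37, which were not called in either comparison.

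The lysyl hydroxylases PLOD1, PLOD2 and PLOD3 modify collagen lysines before secretion. PLOD1 lay at 181, 196 and 159.9 CPM untreated, at 211, 219.6 and 171 CPM with IL-1ß, at 172, 166 and 189 CPM with MSC-CM, at 76.8, 131 and 124 CPM with PRP lysate and at 156, 142 and 113 CPM with ACS. The libraries of both blood products were below all IL-1ß libraries, with a log2 fold change for PRP lysate of -0.88 (SE 0.19, adjusted p = 0.0186), under the 2-fold threshold, and for ACS of -0.55 (adjusted p = 0.152). PLOD3 lay at 400.1, 363 and 400.2 CPM untreated, at 338, 338 and 343 CPM with IL-1ß, at 331, 303 and 325 CPM with MSC-CM, at 366, 405 and 347 CPM with PRP lysate and at 413, 381 and 343 CPM with ACS. Its log2 fold changes over the 7 comparisons ran from -0.19 to 0.24. PLOD2 (13.1 to 75.9 CPM) and LOXL3 (1.76 to 3.79 CPM) were not called.

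**Figure D4:**
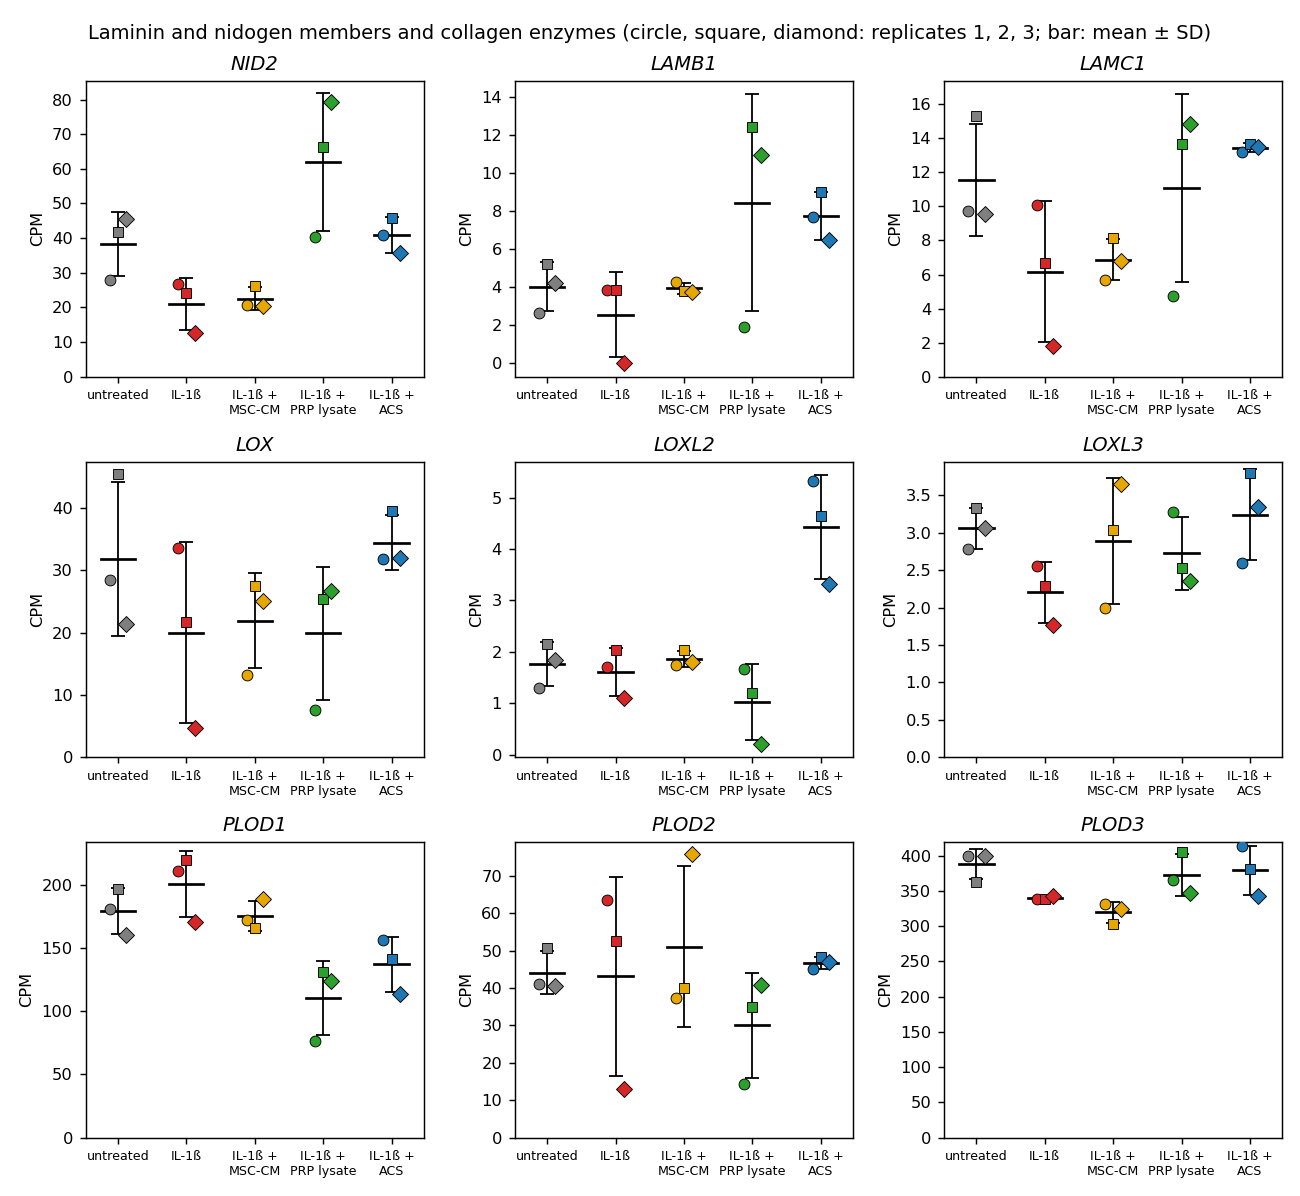
CPM (linear axes) of 3 laminin and nidogen members and 6 collagen enzymes in each library of the 5 conditions; circles, squares and diamonds are replicates 1, 2 and 3, and bars are mean ± SD of 3 libraries. LOXL2 is highest in the 3 ACS libraries, and IL-1ß replicate 3 (diamond) is the lowest IL-1ß library of LAMB1, LAMC1, LOX and PLOD2.

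CD44 and the hyaluronan synthases were not called. CD44 lay at 1056, 1022 and 1081 CPM untreated, at 1073, 1143 and 1267 CPM with IL-1ß, at 994, 909 and 1027 CPM with MSC-CM, at 961, 1162 and 1085 CPM with PRP lysate and at 899, 955 and 806 CPM with ACS. The ACS and MSC-CM libraries were all below the IL-1ß libraries, by -0.39 (SE 0.11, adjusted p = 0.0774) and -0.25 (SE 0.11, adjusted p = 0.705) on the log2 scale. HAS3 lay at 8.79, 5.94 and 8.69 CPM untreated, at 6.92, 8.16 and 17.9 CPM with IL-1ß, at 12.9, 8.64 and 8.38 CPM with MSC-CM, at 13.5, 6.62 and 6.86 CPM with PRP lysate and at 8.65, 8.03 and 7.45 CPM with ACS. Its highest values were in IL-1ß replicate 3 and PRP lysate replicate 1. HAS2 ranged from 0.0692 CPM in IL-1ß replicate 3 to 4.36 CPM in IL-1ß replicate 1. VIM, the mesenchymal intermediate filament vimentin, lay at 8095, 7855 and 6898 CPM untreated, at 6165, 6717 and 5707 CPM with IL-1ß, at 6019.8, 5247 and 5244 CPM with MSC-CM, at 5261, 6671 and 6458 CPM with PRP lysate and at 6297, 5491 and 5179 CPM with ACS. All IL-1ß libraries were below all untreated libraries (log2 fold change -0.30, SE 0.13, adjusted p = 0.349).

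IL-1ß alone was compared with untreated macrophages to see what the stimulus changed in matrix genes. No member was called among 23, against 0.292% of all tested genes, and DESeq2 and edgeR also called 0. At an unadjusted p of at most 0.05 there were 3 members, against 13% of all genes. The IL-1ß libraries lay below all untreated libraries for 5 members (NID2, LOXL3, VIM, SPARC and PLOD3), against 8.22% of all genes, and groups did not overlap in either direction in 16.2% of all genes. The largest falls in value were those of LAMC1 (-0.99), LOX (-0.93) and NID2 (-0.87), the largest rises those of HAS3 (0.35), TGFBI (0.32) and PLOD1 (0.16), and none of these 6 was called. In the 13 libraries LAMC1 was at -0.41, LOX at -0.15, NID2 at -0.55, HAS3 at -0.030, TGFBI at 0.40 and PLOD1 at 0.27, VCAN had the largest rise in value (0.69, SE 0.39), and 0 members were called, against 0.783% of all genes. The median log2 fold change was -0.30 over the members and -0.07 over all genes.

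MSC-CM was compared with IL-1ß to see whether this OT moved the stimulated cells. No member was called by limma, DESeq2 or edgeR, and limma called 0% of all genes. Here 2 members had an unadjusted p of at most 0.05, against 5.60% of all genes. The smallest adjusted p among members was 0.705. CD44 and PLOD3 were the 2 members whose MSC-CM libraries lay below all IL-1ß libraries, against 1.54% of all genes lower in this way and 8.79% in either direction. Values were largest for THBS1 (0.97, SE 0.44), LAMB1 (0.78) and FN1 (0.69) and lowest for CD44 (-0.25), PLOD1 (-0.18) and EMILIN1 (-0.18). Without IL-1ß replicate 3 and PRP lysate replicate 1, the first 3 were at 0.28, 0.025 and 0.19, VCAN had the lowest value (-0.85, SE 0.39), and 0 members and 0% of all genes were called. The all-gene median of this comparison was 0.16 on the CPM scale and 0.00 after RLE scaling, and the members' median was 0.01.

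PRP lysate was compared with IL-1ß to see how this OT moved the stimulated cells. TGFBI, VCAN and COL4A2 fell and NID2 and COL6A2 rose, so 5 of the 23 tested members were called, against 3.09% of all genes (1.07% higher and 2.02% lower). An unadjusted p of at most 0.05 was reached by 10 members, against 17.5% of all genes. With EMILIN1, PLOD1 and SPARC, 8 members passed the adjusted p without a fold threshold, against 4.94% of all genes. The groups did not overlap for 10 members, 4 higher and 6 lower, against 15% of all genes (8.5% higher and 6.47% lower). Over the 13 libraries the same 5 members and LAMB1 were called, against 4.41% of all genes. In a fit of these 2 groups alone TGFBI kept its call, and VCAN, COL4A2, NID2 and COL6A2 lost theirs (adjusted p from 0.228 to 0.388). With the replicate number as a block TGFBI and COL6A2 kept their calls, and NID2, COL4A2 and VCAN lost theirs (adjusted p from 0.0624 to 0.153). The median was -0.12 over the members and 0.11 over all genes (0.02 with RLE scaling). In the same comparison 5 of 16 tested macrophage markers were called lower, among them the scavenger receptor CD163 from 563 to 11.4 CPM. The summed macrophage markers were 3186 to 5331 CPM with PRP lysate and 5588 to 8253 CPM with IL-1ß, and the part of this in the members' differences was not tested.

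ACS against IL-1ß raised FN1 and lowered TGFBI, 2 of 23 members, against 2.21% of all genes (1.23% higher and 0.98% lower). An unadjusted p of at most 0.05 was reached by 10 members, against 20.5% of all genes. Groups did not overlap for 11 members, 8 higher and 3 lower with ACS, against 26.2% of all genes (14.9% higher and 11.2% lower). The count depended on single libraries. Without IL-1ß replicate 1 it was 6, with COL6A2, LAMC1, LOXL2 and NID2 also higher, and without ACS replicate 2 or ACS replicate 3 it was 0. Without any 1 of the other 3 libraries it was 1, FN1 alone. The 2.21% of all genes belongs to the fit of all libraries. Shares in the left-out fits are not given here, so these counts cannot be set against a general change in calls. In a fit of the 2 groups alone FN1 lost its call (adjusted p = 0.143). The count over the 13 libraries was 3 (FN1, TGFBI and VCAN), against 2.63% of all genes. CD163 and AIF1 were the called macrophage markers, at 64.6 against 563 CPM and at 11.6 against 25.8 CPM.

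Between OTs, PRP lysate against MSC-CM called the 5 members TGFBI, VCAN and COL4A2 (lower) and NID2 and COL6A2 (higher), against 2.61% of all genes (0.8% higher and 1.81% lower). The PRP lysate libraries enter this comparison and that against IL-1ß, so the calls of both rest on shared samples. An unadjusted p of at most 0.05 was reached by 8 members, against 14.5% of all genes, and with SPARC 6 members passed the adjusted p without a fold threshold, against 4.22% of all genes. Groups did not overlap for 10 members, 3 higher and 7 lower, against 19.4% of all genes (7.24% higher and 12.1% lower). The count was 4 without PRP lysate replicate 1 or 3, 3 without PRP lysate replicate 2 or MSC-CM replicate 1 or 2, and 2 without MSC-CM replicate 3. The share of all genes called in each of these left-out fits is not given here. With the replicate number as a block in the 12 numbered libraries, TGFBI and COL6A2 remained called. In a block fit of the 6 PRP lysate and MSC-CM libraries alone, added after the data were seen, all 5 remained. That last fit called 406 of all tested genes, against 304 in the reported fit, so its calls were more frequent in general. Over the 13 libraries 6 members were called, LAMB1 in addition (1.36, adjusted p = 0.00106), against 4.83% of all genes. In a fit of the 2 groups alone TGFBI and COL6A2 kept their calls, and COL4A2, NID2 and VCAN lost theirs (adjusted p from 0.0612 to 0.0954). FN1 differed by 0.36 between these OTs (SE 0.43, adjusted p = 0.854). In this comparison 4 of 16 tested macrophage markers were called lower, among them CD163 from 481 to 11.4 CPM and AIF1 from 20.04 to 9.35 CPM, with a median of -0.93. Of the platelet markers (8 of 11 listed) 3 were tested, and PPBP, a platelet chemokine, was called higher at 27.2 against 4.97 CPM. The platelet marker sums were 14.1 to 43.1 CPM with PRP lysate, 8.74 to 11.0 CPM with MSC-CM, 14.4 to 22.1 CPM with ACS, 12.5 to 16.4 CPM with IL-1ß and 4.96 to 7.88 CPM untreated. The part of either marker set in the members' differences was not tested.

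For ACS against MSC-CM no member was called, against 1.23% of all genes, although 13 of 23 did not overlap, 8 higher and 5 lower with ACS, against 35.1% of all genes (12.9% higher and 22.2% lower). At an unadjusted p of at most 0.05 there were 6 members, against 13.5% of all genes. DESeq2 called 3 (TGFBI, FN1 and COL6A2) and edgeR 0, and the 13 libraries gave 4 (TGFBI, VCAN, FN1 and COL6A2), against 2.79% of all genes. COL6A2 lay at the fold threshold there, with a log2 fold change of 1.00.

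PRP lysate and ACS, the 2 blood products, differed in no member by limma, against 0.0946% of all genes. The unadjusted p was at most 0.05 for 7 members, against 5.19% of all genes. DESeq2 called LOXL2 and TGFBI and edgeR called 0, and their shares of all genes are not given here. Groups did not overlap for 10 members, 2 higher and 8 lower with PRP lysate, against 15.6% of all genes (6.66% higher and 8.97% lower). The largest differences were TGFBI (-1.60), LOXL2 (-1.48) and VCAN (-1.48) on the low side and COL18A1 (0.83, SE 0.31), COL6A2 (0.56) and NID2 (0.54) on the high side. Without PRP lysate replicate 1, LOXL2 was called (-1.72, adjusted p = 0.0335). In the 13 libraries it was the only called member, against 0.43% of all genes, and VCAN was at -0.78, COL18A1 at 0.49, COL6A2 at 0.30 and NID2 at 0.82.

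**Figure D5:**
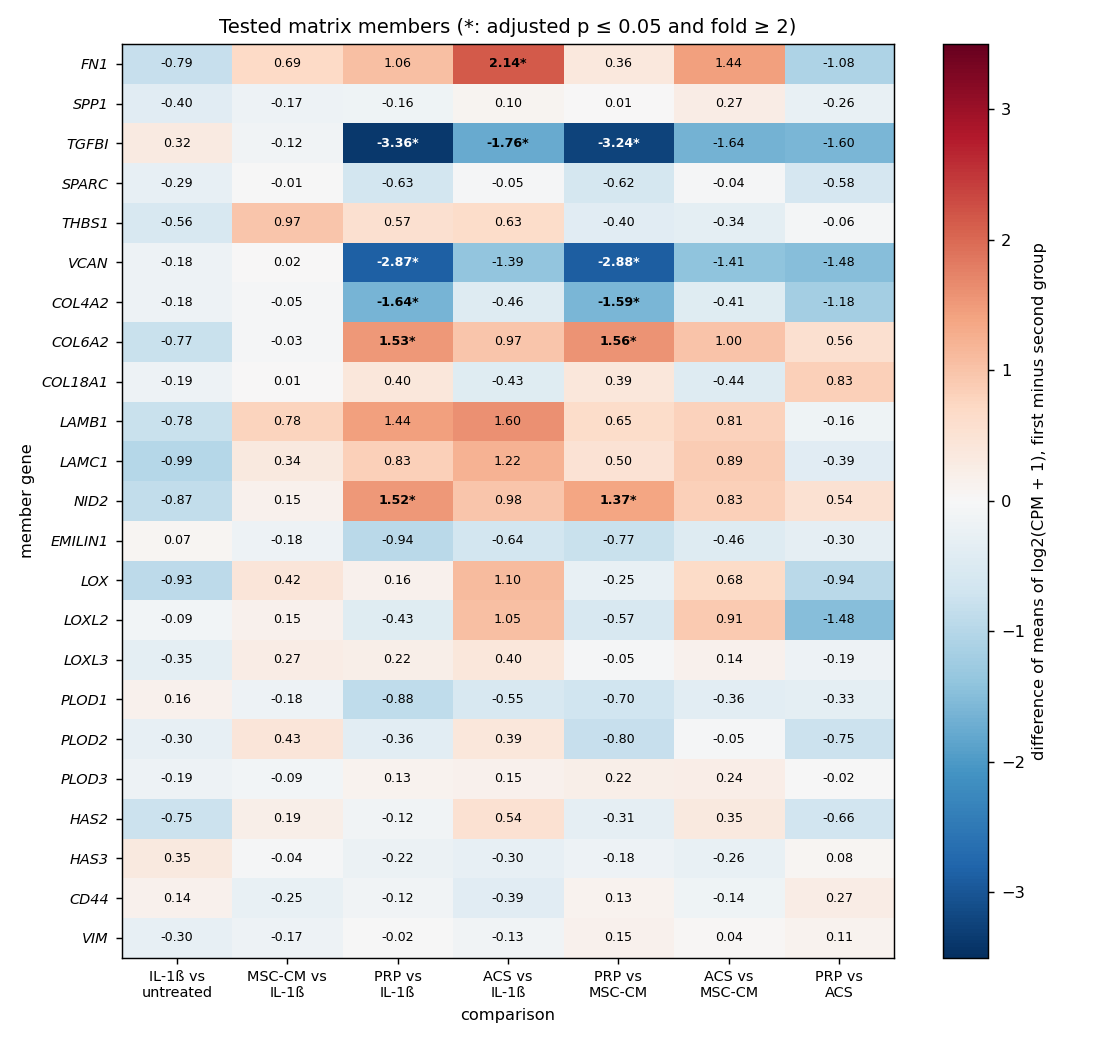
Each cell gives the log2 fold change, the difference of means of log2(CPM + 1) of the first minus the second group, for the 23 tested members (rows) in the 7 comparisons (columns), in red where higher and blue where lower, and stars mark called members. Stars fall in the PRP lysate against IL-1ß, ACS against IL-1ß and PRP lysate against MSC-CM columns, with 5, 2 and 5 members.

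Other matrix genes were taken from a list of 115 structural genes, of which 34 were tested, and a list of 61 enzymes of collagen and glycan assembly, of which 45 were tested. With PRP lysate against IL-1ß, 3 structural genes rose and 1 fell, and 0 enzymes rose and 2 fell, against 3.09% of all genes called. The medians were 0.17 over the structural genes, 0.10 over the enzymes and 0.11 over all genes. MATN4, an adaptor of the matrilin family, rose by 1.79 from 1.49 ± 0.941 to 7.19 ± 0.902 CPM (adjusted p = 0.00311), and COL11A2 (1.57) and CRISPLD2 (1.14) rose as well. TNFAIP6, a hyaluronan-modifying protein induced in inflammation, fell by 1.39 from 273 to 111 CPM (adjusted p = 0.0186). Among the enzymes TGM2, a transglutaminase that crosslinks fibronectin and other matrix proteins, fell by 1.55 from 1369 ± 236 to 465 ± 57.3 CPM (adjusted p = 0.000309), and the heparan sulfate sulfatase SULF2 fell by 1.76 from 215 to 65.8 CPM (adjusted p = 0.00070).

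ACS against IL-1ß raised 2 structural genes, FBLN2 (1.10, 24.0 against 10.5 CPM) and MATN4 (1.60), and 0 enzymes, against 2.21% of all genes, with medians of 0.32 and 0.23 for the lists and 0.13 for all genes. PRP lysate against MSC-CM raised MATN4 (1.31) and lowered the enzymes SULF2 (-1.65) and TGM2 (-1.64), against 2.61% of all genes. TGM2 was also lower with PRP lysate than with ACS (-1.89, 465 against 1745 CPM, adjusted p = 0.00116), the 1 gene of either list called there, against 0.0946% of all genes. In the other 3 comparisons 0 genes of either list were called.

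The fibroblast and stromal markers (15 of 20 listed) summed to 37.1 to 49.9 CPM in 14 libraries and to 76.8 CPM in PRP lysate replicate 1. Most of this sum came from ACTA2 (30.1 CPM on average), a gene of contractile cells, and THY1 (9.03 CPM), with PDGFRA at 0.0914 CPM, PRRX1 at 0.038 CPM, LEPR at 0.0136 CPM and CDH11 at 0.003 CPM on average. FOXF1, a stromal transcription factor, was called higher with ACS than with IL-1ß, at 2.56 against 0.279 CPM. Against MSC-CM, 1 of 3 tested stromal markers was called higher with ACS. Of 16 tested macrophage markers, 1 was called lower in ACS against MSC-CM and 1 in PRP lysate against ACS. The endothelial markers (13 of 13 listed) summed to 89.6 to 130 CPM with ACS, 52.0 to 107.1 CPM with PRP lysate, 36.3 to 55.9 CPM with MSC-CM, 26.9 to 59.4 CPM with IL-1ß and 59.9 to 84.2 CPM untreated. FLT1 was called higher with ACS than with IL-1ß, and CDH5 was called lower with IL-1ß than untreated. FLT1 (43.2 CPM on average) and TEK (16.6 CPM) carried most of that sum, and VWF was at 0.028 CPM. The epithelial markers (3 of 8 listed) summed to 12.3 to 18.4 CPM with ACS, 9.33 to 11.2 CPM with PRP lysate, 5.28 to 6.27 CPM with MSC-CM, 1.59 to 8.76 CPM with IL-1ß and 4.40 to 5.92 CPM untreated, and the 1 tested was not called. Their part in the rises of NID2, COL6A2 and FN1 was not tested.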

How the data were processed

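RNA enriched with oligo(dT) was sequenced from 15 libraries. The authors trimmed reads with cutadapt, aligned them with STAR 2.7.3 to EquCab3.0, counted them with HTSeq in Partek Flow and deposited CPM, counts scaled to the library total, per gene. The strand setting is not given in the sources used here. Member genes, roles and lists were chosen with earlier results of these data known. Members were matched by symbol.

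Genes averaging 1 CPM or more entered limma 3.58.1 (R 4.3.3) with an intensity trend on log2(CPM + 1), 5 conditions in 1 model without pairing. Members were given in every library where they were called, averaged at least 100 CPM or were among the 3 largest rises or falls of a comparison. The rest were given by range and count, and SPARC, COL1A1, COL1A2 and the marker genes were named after their values were seen. Read counts were recovered by dividing CPM by the value of 1 read in each library (99.7% of values came within 0.1 reads of a whole number) for DESeq2 1.42.0 and edgeR 4.0.16, which fitted 16932 and 13675 genes. Further alternatives were a pseudocount of 0.1 CPM, no filter, RLE size factors, only the groups compared, a replicate block, no fold threshold and left-out libraries. The labels do not say what the replicate numbers mark. Over 18 pairs of same-numbered libraries, deviations from the group means correlated over genes at -0.775 to 0.635, with 11 pairs over 0.1. PRP lysate and MSC-CM gave 0.635, 0.255 and 0.419 for replicates 1, 2 and 3. Untreated and PRP lysate replicate 2 gave 0.590, although untreated macrophages had no OT donor. The values do not show what the numbers mark, so blocked values are an alternative and the reported values stay unpaired. ACS titles carry no numbers, so its replicates were numbered in accession order. No replicate libraries were identical. Fits were tested on simulated data. Sequences were not analysed here.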

Additional observations from a re-analysis of the deposited data

How the results depend on the processing

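Over all alternatives, counts of called members in a comparison stayed within 1.5 times the reported count in 79 cases and moved further in 24. For PRP lysate against IL-1ß (5 called), the fit of these 2 groups alone gave 1, the replicate block 2 and no fold threshold 8. For ACS against IL-1ß (2 called), DESeq2 gave 4, no filter 1, the 2 groups alone 1, and leaving out each library 0 to 6. The DESeq2 count includes COL1A1, which the reported fit did not test. For PRP lysate against MSC-CM (5 called), the 2 groups alone gave 2, the replicate block of 12 libraries 2, and leaving out each library 2 to 4. For ACS against MSC-CM (0 called), DESeq2 gave 3, the 2 groups alone 4 and the 13 libraries 4. For PRP lysate against ACS (0 called), DESeq2 gave 2, the 13 libraries 1, and leaving out each library 0 to 1. For most of these alternatives the share of all genes called is not given, so the counts cannot be set against a general change in calls. The cause of the differences in count was not tested, and the 2-group and left-out fits also hold fewer samples. The replicate block changed no call in the IL-1ß against untreated and MSC-CM against IL-1ß comparisons, and no blocked fit was made for ACS.

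Of the members, 42 fold changes (those called or largest in a comparison) were followed under all alternatives, and in 509 refits they kept their direction and side of the threshold, in 42 lost and in 21 gained a call, and in 4 turned in sign, all uncalled. Over all 161 pairs of a tested member and a comparison, 51 turned in sign when 1 library was left out, 0 of them called, with a reported log2 fold change of at most 0.63 in size. TGFBI in IL-1ß against untreated ran from -0.029 (without untreated replicate 3) to 0.51 when each library was left out. HAS3 in the same comparison ran from -0.030 (without IL-1ß replicate 3) to 0.60, and was -0.030 over the 13 libraries. EMILIN1 in MSC-CM against IL-1ß ran from -0.32 to 0.0056 (without MSC-CM replicate 2). The 25 members under 1 CPM rest on few reads, since 1 read was worth up to 0.0352 CPM, and differences between their groups were not tested by limma in the reported fit. No test of single outlying samples was run in the groups of 3 libraries.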
